A study of Mus musculus with 6 samples.

Results

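Oxidative phosphorylation is the step of mitochondrial energy metabolism that turns the oxidation of nutrients into ATP. Complex I oxidises NADH and complex II oxidises succinate, both pass electrons to ubiquinone, complex III passes them to cytochrome c, and complex IV reduces oxygen. Complexes I, III and IV pump protons, and the ATP synthase lets the protons return to make ATP. Most subunits are encoded in the nucleus and imported into mitochondria, and in haematopoiesis the quiescent stem cell compartment is known for relying less on respiration than the progenitors that descend from it. The genes described here are the nuclear-encoded subunits of these complexes. They were taken as every gene whose single annotated symbol follows the naming of complex I (Ndufa, Ndufb, Ndufc, Ndufs, Ndufv), complex III (Uqcr), complex IV (Cox4 to Cox8 with a letter) or the ATP synthase (Atp5), together with Sdha, Sdhb, Sdhc and Sdhd of complex II. This rule uses names and no measured value. It found 90 genes among the 18193 with a symbol of their own on the array: 34 of complex I, 4 of complex II, 8 of complex III, 19 of complex IV and 17 of the ATP synthase, and also 8 Ndufaf genes, which share the Ndufa prefix but encode factors that assemble complex I. Without these 8 and Cox7a2l, a factor of respiratory supercomplexes, 81 subunit genes remain. Cox7b is not analysed here.

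RNA came from LSK cells, which are bone marrow cells without lineage markers that carry Kit and Sca1 and include the haematopoietic stem cells. They were sorted from adult mice of 10 to 14 weeks by surface CD34 and Flt3 into CD34+Flt3hi, CD34+Flt3- and CD34-Flt3- cells, and each of the 3 groups was measured on 2 Affymetrix arrays after 2 rounds of amplification. The stated aim of the study was to find expression differences between LSK subsets of different function. Strain, sex, and the number of mice behind an array are not given in the sources used here. The p-values set each difference against the spread between replicate arrays, estimated in part across genes. Part of that spread may be technical, and it need not show how far mice vary.

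Values are log2 intensities of 1 probe set per gene, the one with the highest mean over the 6 arrays. A difference of 1 is a factor of 2. Group means were compared with limma over all 18193 genes, and a gene passed where its p-value was under 0.05 after a Benjamini-Hochberg adjustment over every gene tested in that comparison. Intensity depends on the probe set, so levels are compared between groups within a gene and never between genes. In bulk RNA of this kind, fewer cells of a type and less RNA per cell cannot be told apart. The sort antigens followed the labels only in part. Cd34 was 11.35 and 11.34 in CD34+Flt3hi cells, 10.51 and 10.68 in CD34+Flt3- cells and 8.78 and 9.45 in CD34-Flt3- cells. Flt3 was 12.01 and 11.75 in CD34+Flt3hi cells, 8.84 and 9.81 in CD34+Flt3- cells and 7.65 and 9.16 in CD34-Flt3- cells. Both Flt3hi arrays stood above the others, while the arrays of the Flt3- groups overlapped. Kit lay between 8.82 and 10.99 on all arrays, and Sca1 (Ly6a) is not analysed here.

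Of the 90 genes, 87 had a mean above background in every group, background being a log2 intensity of 4.50 set from bacterial control probe sets. The muscle isoform Cox7a1, the testis isoform Cox7b2 and the complex I subunit Ndufb4 lay below it in every group, and other Ndufb4 probe sets carry several symbols and were left out. Replicates of the 90 genes differed by a median of 0.12 between CD34+Flt3hi replicates, 0.15 between CD34+Flt3- replicates and 0.23 between CD34-Flt3- replicates, against 0.18, 0.26 and 0.34 over all genes in the same groups. A mean over the arrays below background was found for 26.7% of all genes and for 3 of the 90. The shares and medians of all genes given below were not matched to the set for intensity, and its part in them was not tested. The largest replicate gaps were 1.21 for Cox7c in CD34+Flt3- cells and 1.14 for Sdhd in CD34-Flt3- cells, and no other gene of the set differed over 2-fold between replicates.

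CD34+Flt3hi cells were first compared with CD34-Flt3- cells, the groups farthest apart in both antigens. Cox6a1, Cox5a, Cox7a2 and Ndufa4 of complex IV and Ndufs8 of complex I were higher in CD34+Flt3hi cells, by 1.58-fold to 2.78-fold, and no gene of the 90 was lower past the threshold. These 5 genes are 5.56% of the 90. Over all genes 6.11% passed in this comparison, 2.62% as higher and 3.5% as lower. The total share is thus near that of all genes, and the set does not stand out by its number of calls, although all 5 calls were in the same direction. At an unadjusted p under 0.05, 13 of the 90 were higher and 3 lower, against 6.77% and 11.6% of all genes. The median log2 difference of the 90 genes was 0.12, with 61 above 0, against a median of -0.07 over all genes, and it was 0.18 without CD34-Flt3- replicate 1. For 37 of the 90 genes both CD34+Flt3hi arrays lay above both CD34-Flt3- arrays, and for 14 both lay below. Such separation was found for 18.8% of all genes in the higher direction and 29.1% in the lower direction.

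**Figure D1:**
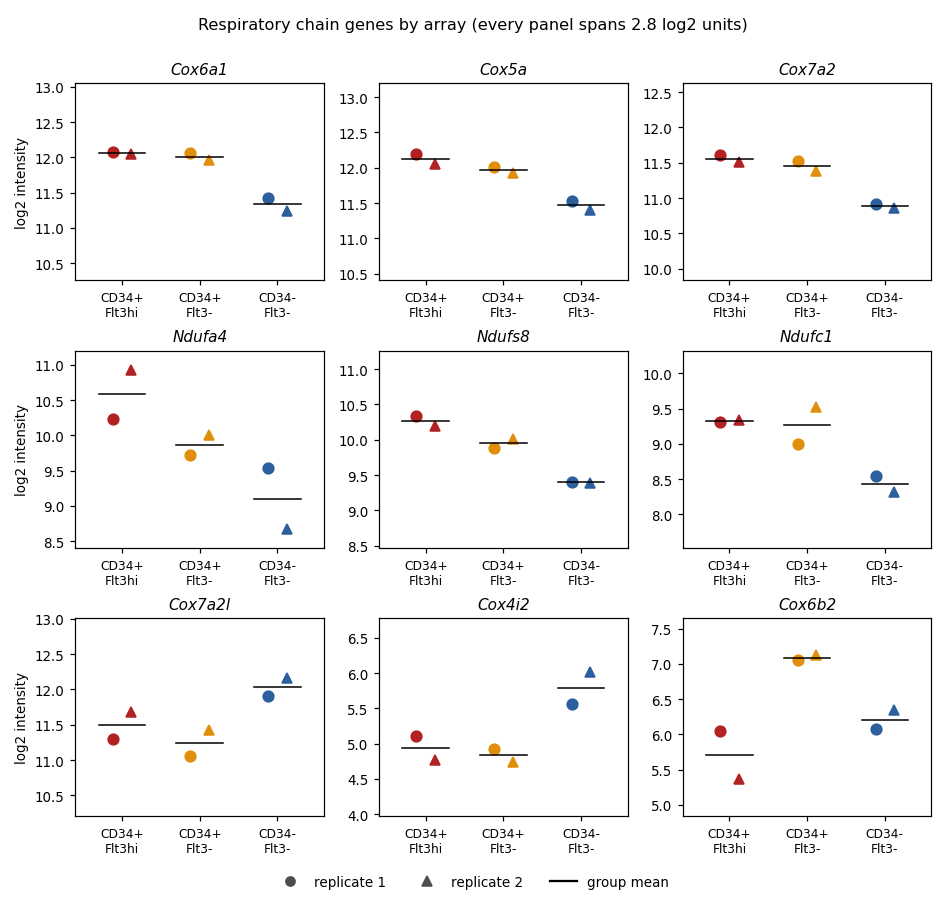
Log2 intensity of 9 named genes on each array, by group (x axis), with replicate 1 as circles, replicate 2 as triangles and the group mean as a line. The 2 CD34-Flt3- arrays lie below the 4 CD34+ arrays for Cox6a1, Cox5a, Cox7a2, Ndufa4, Ndufs8 and Ndufc1 and above them for Cox7a2l and Cox4i2, whereas Cox6b2 is highest in CD34+Flt3- cells.

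Cox6a1 (Entrez Gene 12861), the widely expressed isoform of subunit 6A of complex IV, was 12.08 and 12.04 in CD34+Flt3hi cells, 12.06 and 11.96 in CD34+Flt3- cells and 11.43 and 11.24 in CD34-Flt3- cells. Both CD34+ groups lay together, above both CD34-Flt3- arrays. The difference of CD34+Flt3hi from CD34-Flt3- cells was 0.73 ± 0.15 (SE), 1.65-fold, with an adjusted p of 0.0223 in limma. Cox5a (Entrez Gene 12858), the subunit that faces the matrix, was 12.20 and 12.05 in CD34+Flt3hi cells, 12.01 and 11.92 in CD34+Flt3- cells and 11.53 and 11.41 in CD34-Flt3- cells. Its groups came in the same order without overlap, and the difference was 0.66 ± 0.15 (SE), 1.58-fold, with a limma adjusted p of 0.0326. Cox7a2 (Entrez Gene 12866), the widely expressed isoform of subunit 7A, was 11.60 and 11.51 in CD34+Flt3hi cells, 11.53 and 11.39 in CD34+Flt3- cells and 10.92 and 10.87 in CD34-Flt3- cells. Its difference was 0.66 ± 0.16 (SE), 1.58-fold, with a limma adjusted p of 0.0434, and again the CD34+ arrays overlapped each other and not the CD34-Flt3- arrays.

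Ndufa4 (Entrez Gene 17992), first named as a complex I subunit and now placed in complex IV, had the largest difference of the 90 genes. It was 10.23 and 10.93 in CD34+Flt3hi cells, 9.72 and 10.01 in CD34+Flt3- cells and 9.54 and 8.67 in CD34-Flt3- cells. The groups did not overlap, although both outer groups had wide replicate gaps. The difference was 1.48 ± 0.33 (SE), 2.78-fold, with a limma adjusted p of 0.0255, and it rests on a single probe set. Ndufs8 (Entrez Gene 225887), an iron-sulphur subunit on the electron path of complex I, was 10.34 and 10.20 in CD34+Flt3hi cells, 9.88 and 10.02 in CD34+Flt3- cells and 9.41 and 9.38 in CD34-Flt3- cells. Its groups stood apart with narrow replicate gaps, and the difference was 0.87 ± 0.20 (SE), 1.83-fold, with a limma adjusted p of 0.0316.

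The 5 calls depended on which arrays entered. Without CD34+Flt3hi replicate 1 none of the 5 passed, with adjusted p between 0.0637 and 0.440, and without CD34+Flt3hi replicate 2 none passed either, with adjusted p between 0.225 and 0.299. Cox6a1, Ndufs8 and Cox5a passed without CD34+Flt3- replicate 1, Cox6a1 alone passed without CD34+Flt3- replicate 2, and Cox6a1 and Ndufs8, with Atp5g2 of the ATP synthase, passed without CD34-Flt3- replicate 2. Without CD34-Flt3- replicate 1 the 5 differences lay between 0.69 for Cox7a2 and 1.91 for Ndufa4. Ndufc1 was at 1.01, Atp5pb at 0.78 and Cox4i2 at -1.08 there. Calls in fits with an array left out are given without the share of all genes and describe these fits only. All 5 differences stayed positive in each of these fits. This was fixed in advance, since both CD34+Flt3hi arrays lay above both CD34-Flt3- arrays for each of the 5 genes. Replicate 2 of every group carries the same code in its title, whose meaning is not stated. Between these arrays alone the CD34+Flt3hi minus CD34-Flt3- differences were 0.80 for Cox6a1, 0.65 for Cox5a, 0.64 for Cox7a2, 2.26 for Ndufa4 and 0.81 for Ndufs8.

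Other probe sets of the 5 genes gave differences between 0.38 and 1.14 for the complex IV genes: 1.14 for the other Cox6a1 set, 0.71 and 0.44 for the other Cox5a sets, and 0.38 for the other Cox7a2 set. Ndufs8 had 6 probe sets, whose differences were 0.87, 0.91, 0.71, 0.67, 0.16 and 0.00, the last 2 from the dimmest sets. The set used for Ndufs8 has a suffix that marks probes shared with other transcripts, and its brightest set without that suffix gave an adjusted p of 0.118 in limma. Over the whole list, 76 other probe sets above background could be set against the ones used, and 59 had the same sign in this comparison.

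The promoters of Cox6a1, Cox5a and Cox7a2, 3 of the 4 complex IV genes that passed, are shown as RefSeq gives them on mouse build GRCm38.p6, 5′ to 3′ on the strand of the gene, from 250 bases before the annotated start to 50 after it. Capitals mark letters that match the nuclear respiratory factor motif NRF1, GCATGCGC, and its reverse complement, which overlap. The windows are chr5:115348909-115349208 on the minus strand for Cox6a1, chr9:57520982-57521281 on the plus strand for Cox5a and chr9:79759804-79760103 on the minus strand for Cox7a2.
Cox6a1: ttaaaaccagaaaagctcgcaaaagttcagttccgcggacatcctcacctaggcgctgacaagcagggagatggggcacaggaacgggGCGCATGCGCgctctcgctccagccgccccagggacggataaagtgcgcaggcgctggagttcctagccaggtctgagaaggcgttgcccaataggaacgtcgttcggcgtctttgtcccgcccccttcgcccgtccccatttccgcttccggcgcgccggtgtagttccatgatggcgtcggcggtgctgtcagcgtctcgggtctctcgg
Cox5a: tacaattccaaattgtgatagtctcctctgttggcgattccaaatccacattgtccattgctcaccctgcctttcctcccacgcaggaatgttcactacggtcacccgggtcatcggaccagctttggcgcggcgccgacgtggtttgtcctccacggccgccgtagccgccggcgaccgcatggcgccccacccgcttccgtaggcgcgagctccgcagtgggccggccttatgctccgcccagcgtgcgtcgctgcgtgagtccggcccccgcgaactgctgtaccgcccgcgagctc
Cox7a2: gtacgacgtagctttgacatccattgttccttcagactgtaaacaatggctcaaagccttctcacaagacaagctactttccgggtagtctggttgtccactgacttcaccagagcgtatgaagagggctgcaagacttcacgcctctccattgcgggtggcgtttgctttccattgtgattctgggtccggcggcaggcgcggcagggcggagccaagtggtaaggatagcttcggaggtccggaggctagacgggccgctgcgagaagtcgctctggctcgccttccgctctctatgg
Of the 3 windows, the Cox6a1 window alone holds a match, whose letters begin at -162 on the opposite strand and at -160 on the same strand, counted from the annotated start. The windows of Ndufa4 (chr6:11907401-11907700, minus strand) and Ndufs8 (chr19:3912725-3913024, minus strand) hold none of the 4 motifs searched.

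RefSeq promoters were found for 74 of the 90 genes, 79 promoters in all, and searched on both strands for 4 motifs of factors known to act on respiratory genes. GCATGCGC of NRF1 was in 13.9% of these promoters and in 2.71% of 32851 promoters of all genes. AAGATGGC of YY1 was in 12.7% and 2.75%, AAGGTCA of ERRA in 10.1% and 4.72%, and CCGGAAGT of GABPA and other ETS factors in 6.33% and 3.89%. The NRF1 letters were in the windows of Cox6a1, Atp5g2, Atp5k, Atp5l, Uqcrc1, Uqcr11, Sdhb, Ndufa6, Ndufa8, Ndufaf4 and Ndufaf5. They began before the annotated start in 8 of these genes, after it in Uqcrc1 and Ndufaf5, and on both sides in Ndufaf4. The YY1 letters were in the windows of Ndufc1, Ndufa3, Ndufa9, Ndufb8, Ndufs4, Ndufs7, Ndufaf8, Atp5j, Atp5j2 and Atp5pb. They began before the annotated start in Atp5j and Atp5pb and after it, within the transcript, in the other 8. A match describes letters in this window and is no evidence of binding in these cells.

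CD34+Flt3- cells, which carry CD34 and not Flt3, were next compared with CD34-Flt3- cells. No gene of the 90 passed in limma, where 2.1% of all genes did. At an unadjusted p under 0.05, 15 were higher and 5 lower, against 4.81% and 12.1% of all genes. The smallest adjusted p in limma was 0.0582, for Cox6a1 at 0.68 ± 0.15 (SE). The median difference of the 90 was 0.11, with 54 above 0, against -0.10 over all genes. It was 0.0440 without CD34+Flt3- replicate 2, and 0.27 with 66 above 0 when quantile normalization was repeated. For 35 genes both CD34+Flt3- arrays lay above both CD34-Flt3- arrays and for 15 both lay below, against 15.6% and 28.6% of all genes. By size, the differences farthest above 0 were those of Cox6b2, a testis isoform of complex IV, at 0.88 ± 0.31 (adjusted p = 0.181), and of Ndufc1, a small accessory subunit of complex I, at 0.83 ± 0.25 (adjusted p = 0.135). Those farthest below 0 were -1.08 ± 0.45 for Cox7c (adjusted p = 0.259) and -0.95 ± 0.27 for Cox4i2 (adjusted p = 0.112), both of complex IV and both in limma with SE. Without CD34-Flt3- replicate 1 the differences were 0.77 for Cox6a1, 1.19 for Ndufa4, -1.18 for Cox4i2 and -0.92 for Cox7a2l.

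Ndufc1 was 9.31 and 9.34 in CD34+Flt3hi cells, 8.998 and 9.52 in CD34+Flt3- cells and 8.55 and 8.32 in CD34-Flt3- cells. Both CD34+ groups lay above the CD34-Flt3- arrays and overlapped each other. Cox7c, a small membrane subunit, was 6.15 and 6.98 in CD34+Flt3hi cells, 6.85 and 5.64 in CD34+Flt3- cells and 7.71 and 6.95 in CD34-Flt3- cells, and its replicate gaps were close in size to its differences. A contrast chosen after seeing the data set the mean of both CD34+ groups against CD34-Flt3- cells. In it 6 of the 90 genes passed, against 6.24% of all genes, namely Cox6a1 at 0.70 (adjusted p = 0.0137), Cox5a at 0.58, Cox7a2 at 0.61, Ndufs8 at 0.71, Ndufa4 at 1.12 and Ndufc1 at 0.86 (adjusted p = 0.0495), all higher in the CD34+ groups. This contrast uses the same arrays as the comparisons above and adds no independent evidence.

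CD34+Flt3hi and CD34+Flt3- cells share CD34 and differ in Flt3. None of the 90 genes passed between them in limma, against 0.61% of all genes, and at an unadjusted p under 0.05 none was higher and 1 was lower, where 4.17% and 2.58% of all genes were. The median difference was 0.07, with 56 above 0, against 0.03 over all genes, but it turned to -0.07, with 34 above 0, when the arrays were quantile normalized again. Arrays did not overlap for 32 genes in the higher and 11 in the lower direction, against 22.7% and 17.7% of all genes. The differences farthest from 0 were those of Cox6b2 at -1.38 ± 0.31 (adjusted p = 0.115), Ndufa4 at 0.72 ± 0.33 (adjusted p = 0.739), the assembly factor Ndufaf6 at 0.49 ± 0.30 (adjusted p = 0.886) and the accessory subunit Ndufb10 at -0.35 ± 0.23 (adjusted p = 0.909). Leaving out either CD34-Flt3- array kept the Cox6b2 difference at -1.38, since it rests on the CD34+ arrays alone. A moderated F over the 3 groups passed for Cox6a1 alone (adjusted p = 0.0364), while 4.67% of all genes passed. For none of the 90 did the CD34+Flt3hi minus CD34+Flt3- difference differ from the CD34+Flt3- minus CD34-Flt3- difference past the threshold, which 0.0275% of all genes passed. In that test 5 of the 90, and 9.29% of all genes, had an unadjusted p under 0.05 in limma, and the smallest adjusted p was 0.306.

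**Figure D2:**
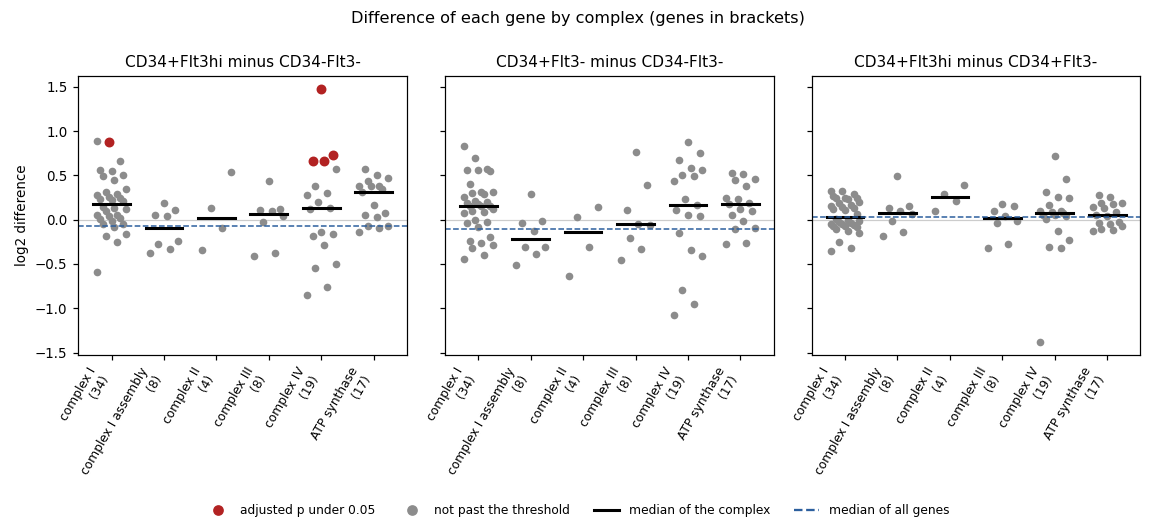
Log2 difference of each gene (y axis) by complex (x axis) in the 3 comparisons, with genes past an adjusted p of 0.05 in red, the median of each complex as a black bar and the median of all genes as a dashed line. Red points occur only in CD34+Flt3hi minus CD34-Flt3-, 1 in complex I and 4 in complex IV.

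Within complex I, the 28 accessory subunits and the 6 core subunits gave different medians, without a test between them. In CD34+Flt3hi minus CD34-Flt3- the accessory subunits had a median of 0.22, with 24 of 28 above 0, and the core subunits -0.05, with 2 of 6 above 0. Between CD34+Flt3- and CD34-Flt3- cells the medians were 0.18 for the accessory and -0.11 for the core subunits, and that of the core subunits turned to 0.09 when quantile normalization was repeated. Ndufs8 and Ndufv2 were the 2 core subunits above 0 in the first of these comparisons. Core subunits carry the flavin and iron-sulphur centres, and Ndufv1, which holds the flavin, was 10.54 and 10.45 in CD34+Flt3hi cells, 10.37 and 10.40 in CD34+Flt3- cells and 10.61 and 10.69 in CD34-Flt3- cells. The CD34-Flt3- arrays were the highest for Ndufv1, with a difference of -0.16 ± 0.18 (SE) for CD34+Flt3hi cells. Among accessory subunits, Ndufab1, which is also the mitochondrial acyl carrier protein, was 9.92 and 9.78 in CD34+Flt3hi cells, 9.66 and 9.56 in CD34+Flt3- cells and 9.54 and 9.06 in CD34-Flt3- cells. Its difference of 0.55 ± 0.23 (SE) between the outer groups had an adjusted p of 0.247 in limma. Ndufb3 had the lowest value of complex I in this comparison, -0.59 ± 0.23 (SE), with an adjusted p of 0.195. The 2 brightest probe sets of the complex, which are not a ranking of RNA, were those of Ndufb11 and Ndufc2, with differences of 0.14 ± 0.15 and 0.24 ± 0.16 (SE).

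None of the 8 Ndufaf assembly factors passed in any comparison. Their median was -0.10 for CD34+Flt3hi minus CD34-Flt3-, with 4 of 8 above 0, and -0.22 for CD34+Flt3- minus CD34-Flt3-, with 1 of 8 above 0, which became -0.02 with 4 of 8 above 0 when quantile normalization was repeated. The differences of the 8 ranged between -0.38 and 0.19 in CD34+Flt3hi minus CD34-Flt3-. The brightest of their probe sets were those of Ndufaf8, at 9.36 and 9.27 in CD34+Flt3hi cells, 9.38 and 9.63 in CD34+Flt3- cells and 8.88 and 9.54 in CD34-Flt3- cells, and of Ndufaf4, and in both the groups overlapped.

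Complex II, succinate dehydrogenase, also belongs to the tricarboxylic acid cycle and has all its subunits encoded in the nucleus. Sdhb, its iron-sulphur subunit, was 10.55 and 10.55 in CD34+Flt3hi cells, 10.19 and 10.12 in CD34+Flt3- cells and 10.04 and 9.98 in CD34-Flt3- cells. The 3 groups did not overlap, and the difference of the outer groups was 0.54 ± 0.19 (SE) with a limma adjusted p of 0.152. Sdha, the flavoprotein, was 10.81 and 10.71 in CD34+Flt3hi cells, 10.79 and 10.15 in CD34+Flt3- cells and 11.36 and 10.85 in CD34-Flt3- cells. Its CD34-Flt3- arrays were the highest, with -0.34 ± 0.25 (SE) for CD34+Flt3hi minus CD34-Flt3- and a limma adjusted p of 0.545. Another Sdha probe set, with a mean of 10.76 over the arrays against 10.78 for the one used, gave -0.01 there. The membrane anchors Sdhc and Sdhd differed by 0.13 ± 0.27 and -0.09 ± 0.36 (SE) in the same comparison, less than their replicate gaps in CD34-Flt3- cells. Their probe sets disagreed, since the other Sdhc set gave 0.47 and the other Sdhd set 0.71 there. Both of these sets are dimmer than the ones used and above background.

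Complex III gave medians near 0 in CD34+Flt3hi minus CD34-Flt3-, at 0.07 with 5 of 8 above 0, and none of its 8 genes passed in any comparison. Uqcrb, which lies near the ubiquinone site and has the brightest probe set of the complex, was between 13.39 and 13.52 on all 6 arrays. The core protein Uqcrc2 was 11.56 and 11.49 in CD34+Flt3hi cells, 11.37 and 11.39 in CD34+Flt3- cells and 11.67 and 11.17 in CD34-Flt3- cells, so that the CD34-Flt3- arrays spanned the other groups. Uqcrq, a small membrane subunit, had the largest value of the complex for CD34+Flt3- minus CD34-Flt3-, which was 0.77 ± 0.28 (SE), with an adjusted p of 0.208. That value comes from a set with the suffix for shared probes, and dimmer Uqcrq sets above background gave 0.11, 0.14 and -0.38. Uqcrc1, the other core protein, had the lowest there, -0.45 ± 0.20 (SE), with an adjusted p of 0.297. The Rieske iron-sulphur protein Uqcrfs1 differed by -0.02 ± 0.20 (SE) between the outer groups.

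Complex IV held the widest range of differences, between -0.85 and 1.48 in CD34+Flt3hi minus CD34-Flt3-. Its 10 widely expressed subunits had a median of 0.34 in that comparison and of 0.36 in CD34+Flt3- minus CD34-Flt3-, with 8 of 10 above 0 in each. The subunits Cox4i1 and Cox7c were the exceptions. Cox4i1, the isoform of subunit 4 in most tissues, was 11.75 and 11.65 in CD34+Flt3hi cells, 11.63 and 11.28 in CD34+Flt3- cells and 11.84 and 11.87 in CD34-Flt3- cells. Both CD34-Flt3- arrays were above the rest, with -0.16 ± 0.17 (SE) for CD34+Flt3hi cells and -0.41 ± 0.17 (SE) for CD34+Flt3- cells, and neither passed in limma. Cox5b, with the brightest probe set of the complex, differed by 0.20 ± 0.14 (SE) between the outer groups.

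The 8 isoforms of complex IV that belong mainly to muscle, lung or testis or are induced by low oxygen gave a median of -0.16 in CD34+Flt3hi minus CD34-Flt3-, with 3 of 8 above 0, and none passed. Cox4i2, known from lung and from cells at low oxygen, was 5.11 and 4.77 in CD34+Flt3hi cells, 4.93 and 4.74 in CD34+Flt3- cells and 5.57 and 6.01 in CD34-Flt3- cells. Both CD34-Flt3- arrays lay above the 4 CD34+ arrays, all near background, and the differences were -0.85 ± 0.27 (SE, adjusted p = 0.114 in limma) for CD34+Flt3hi cells and -0.95 ± 0.27 for CD34+Flt3- cells. Relative to Cox4i1 on the same array, Cox4i2 differed by -0.69 between CD34+Flt3hi and CD34-Flt3- cells. Cox6b2 was 6.05 and 5.37 in CD34+Flt3hi cells, 7.06 and 7.12 in CD34+Flt3- cells and 6.08 and 6.34 in CD34-Flt3- cells. The CD34+Flt3- arrays were the highest. Cox6b1, its widely expressed partner, varied between 11.14 and 11.40 with the probe set used, with 0.04 for CD34+Flt3- minus CD34-Flt3- and 0.13 for CD34+Flt3hi minus CD34-Flt3-. The other Cox6b1 set, also above background, gave 0.67 and 0.66 in these comparisons and -0.02 for CD34+Flt3hi minus CD34+Flt3-. For the other pairs the CD34+Flt3hi minus CD34-Flt3- difference of the tissue isoform less that of its partner was -0.16 for Cox6a2 against Cox6a1, -0.52 for Cox8b against Cox8a, -1.66 for Ndufa4l2 against Ndufa4 and -0.38 for Cox7a1, itself below background, against Cox7a2. Ndufa4l2 itself differed by -0.18 ± 0.28 (SE), so that the value of this pair lies mostly in Ndufa4.

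Cox7a2l, a relative of Cox7a2 that joins complexes III and IV into supercomplexes, was 11.30 and 11.69 in CD34+Flt3hi cells, 11.06 and 11.42 in CD34+Flt3- cells and 11.91 and 12.16 in CD34-Flt3- cells. Both CD34-Flt3- arrays were above the 4 CD34+ arrays, and 2 other probe sets gave -0.60 and -0.86 in CD34+Flt3- minus CD34-Flt3-, beside -0.80 ± 0.20 (SE) for the one used. The adjusted p in limma was 0.0809 there and 0.175 for CD34+Flt3hi minus CD34-Flt3-, so neither difference passed.

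**Figure D3:**
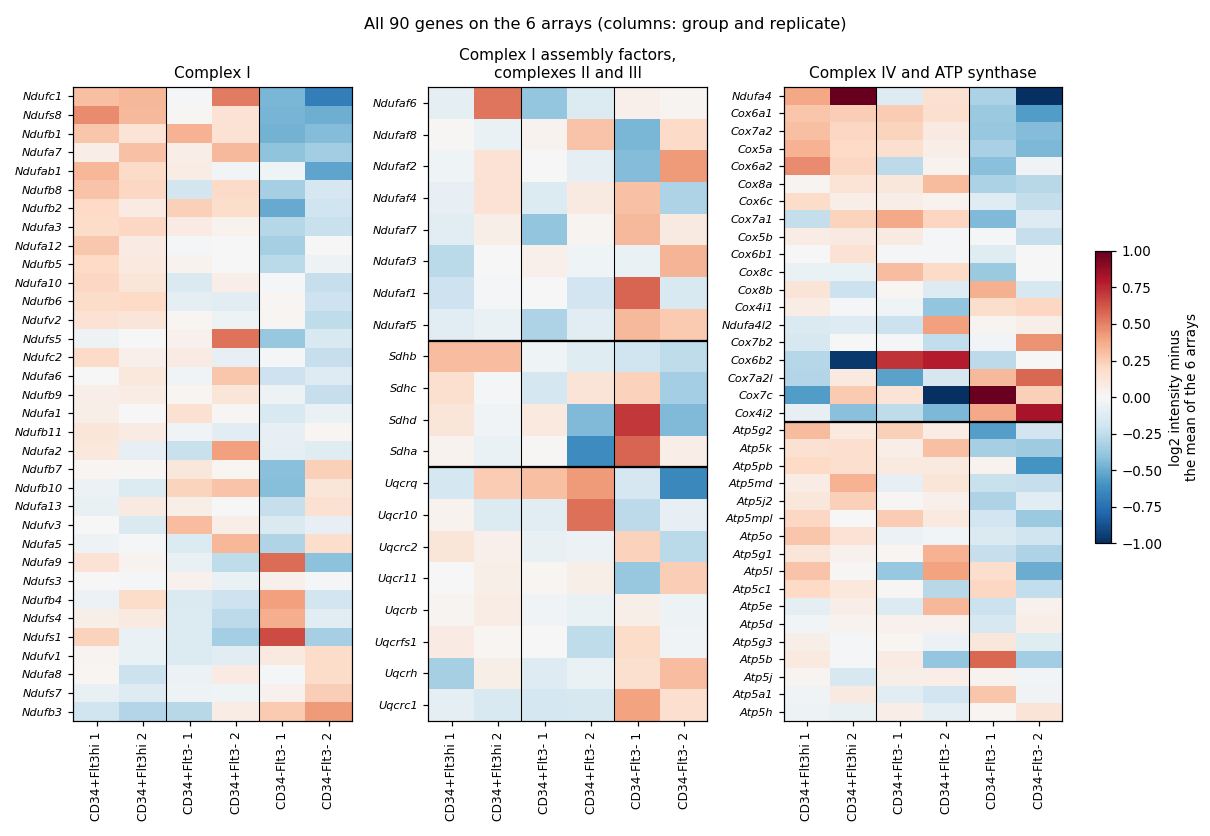
Log2 intensity of all 90 genes minus the mean of the 6 arrays, with colours running from -1 to 1 and larger values drawn at the end colour. Columns are arrays by group and replicate, rows are genes by complex, ordered by CD34+Flt3hi minus CD34-Flt3-. Genes at the top of complexes I and IV and of the ATP synthase are lowest in both CD34-Flt3- columns, and several complex I, II and ATP synthase genes are high in CD34-Flt3- replicate 1 only.

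The 17 ATP synthase genes had a median of 0.31 in CD34+Flt3hi minus CD34-Flt3-, with 13 of 17 above 0, and of 0.17 in CD34+Flt3- minus CD34-Flt3-, with 12 above 0, and none passed. Atp5g2, 1 of 3 genes for the c subunit of the proton-driven rotor, was 11.16 and 10.94 in CD34+Flt3hi cells, 11.08 and 10.91 in CD34+Flt3- cells and 10.29 and 10.66 in CD34-Flt3- cells. Its CD34-Flt3- arrays were the lowest, and its difference of 0.57 ± 0.20 (SE) between the outer groups had an adjusted p of 0.149 in limma. The other c subunit genes Atp5g1 and Atp5g3 differed by 0.35 ± 0.24 and 0.03 ± 0.14 (SE). Atp5k, a membrane subunit that helps dimers form, differed by 0.50 ± 0.19 (SE, adjusted p = 0.176 in limma). Atp5pb, the stalk subunit b, differed by 0.47 ± 0.23 (SE, adjusted p = 0.317 in limma). The other Atp5pb probe set, without the suffix for shared probes, gave 0.12, while the other Atp5k sets gave 0.51 and 0.53. In the catalytic head, Atp5a1, the alpha subunit, differed by -0.09 ± 0.17 (SE) and Atp5b, the beta subunit, by -0.07 ± 0.28 (SE). Atp5b was 12.10 and 11.99 in CD34+Flt3hi cells, 12.09 and 11.62 in CD34+Flt3- cells and 12.58 and 11.66 in CD34-Flt3- cells, so that the CD34-Flt3- arrays spanned all others. Atpif1, the inhibitor of ATP hydrolysis by this enzyme, is not in the set and differed by -0.17 ± 0.24 (SE) between the outer groups.

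**Figure D4:**
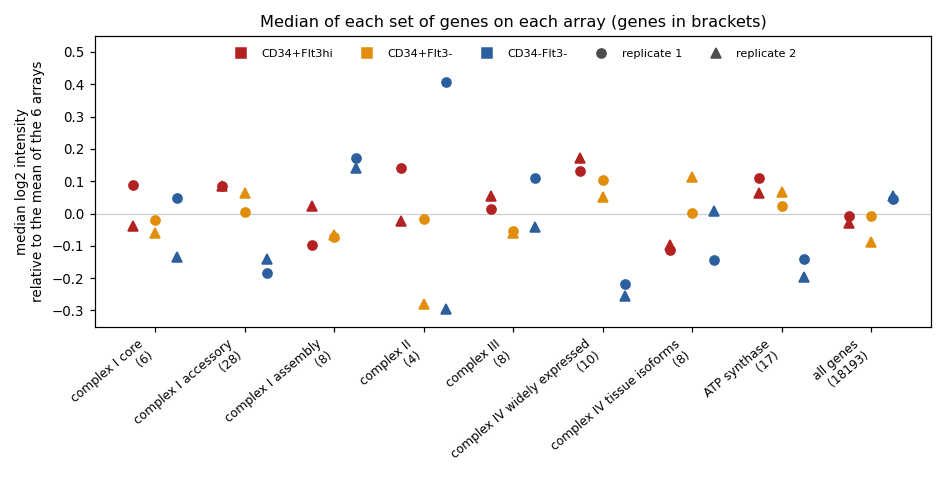
Median over each set of genes of the log2 intensity minus the mean of the 6 arrays (y axis), for every array, with groups in colour, replicate 1 as circles and replicate 2 as triangles. The CD34-Flt3- arrays are the lowest for the complex I accessory subunits, the widely expressed complex IV subunits and the ATP synthase, and the highest for the complex I assembly factors.

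By array, the median of the 90 genes relative to the mean of the 6 arrays was 0.06 and 0.06 in CD34+Flt3hi cells, 0.01 and 0.03 in CD34+Flt3- cells and -0.08 and -0.12 in CD34-Flt3- cells. Over all genes it was -0.01 and -0.03 in CD34+Flt3hi cells, -0.01 and -0.09 in CD34+Flt3- cells and 0.05 and 0.05 in CD34-Flt3- cells. For the 90 genes both CD34-Flt3- arrays were thus the lowest. The CD34+Flt3hi arrays lay above the CD34+Flt3- arrays in these values, but the median difference between the CD34+ groups turned to -0.07 when quantile normalization was repeated. Complex II was the least even set across replicates, with 0.41 and -0.30 on the CD34-Flt3- arrays.

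Genes around the respiratory chain were read from 7 lists, and no gene of any list passed in any comparison in limma. Of all genes, 6.11% passed in CD34+Flt3hi minus CD34-Flt3-, 2.1% in CD34+Flt3- minus CD34-Flt3- and 0.61% in CD34+Flt3hi minus CD34+Flt3-. In CD34+Flt3hi minus CD34-Flt3-, 6.77% of all genes were higher and 11.6% lower at an unadjusted p under 0.05. Of 11 chain genes outside the naming rule, such as cytochrome c, the median was 0.09 in CD34+Flt3hi minus CD34-Flt3-, with 6 of 11 above 0, and 1 was higher and 1 lower at an unadjusted p under 0.05. The median was 0.02 for 37 other assembly factors (2 higher and 2 lower at an unadjusted p under 0.05) and 0.00 for 18 import genes of the mitochondrial membranes (2 and 2). It was -0.01 for 20 regulators of mitochondrial biogenesis (2 and 3), -0.02 for 19 genes of the tricarboxylic acid cycle and pyruvate dehydrogenase (1 and 0) and -0.31 for 6 pyruvate dehydrogenase kinases and phosphatases (0 and 2). In CD34+Flt3- minus CD34-Flt3- the medians of these 6 lists lay between -0.27 and -0.07. Of the 13 subunits encoded in mitochondrial DNA, 1 had a probe set and differed by 0.41 between the outer groups without passing.

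Some technical values and markers of other cells moved with the groups. The ratio of 3′ to 5′ signal of Gapdh, which grows with RNA breakdown or short amplified RNA, was 6.59 and 8.42 in CD34+Flt3hi cells, 6.83 and 7.50 in CD34+Flt3- cells and 5.04 and 6.34 in CD34-Flt3- cells. That of actin was 3.69 and 3.79 in CD34+Flt3hi cells, 3.25 and 4.44 in CD34+Flt3- cells and 3.58 and 5.55 in CD34-Flt3- cells, where the groups overlapped. The summed linear intensity of 7 measured neutrophil and monocyte markers of 8 was 619.6 to 917 in CD34+Flt3hi cells, 255 to 337 in CD34+Flt3- cells and 188 to 236 in CD34-Flt3- cells, with 4 of the 7 below background in every group. This sum followed Csf1r, the receptor of the macrophage growth factor CSF1, and without it the other 6 markers summed to 145 to 159 in CD34+Flt3hi cells, 142 to 145 in CD34+Flt3- cells and 133 to 154 in CD34-Flt3- cells. For 4 megakaryocyte markers it was 132 to 135 in CD34+Flt3hi cells, 337 to 583 in CD34+Flt3- cells and 374 to 531 in CD34-Flt3- cells. For 6 of 7 T and NK markers it was 956 to 972 in CD34+Flt3hi cells, 1343 to 1356 in CD34+Flt3- cells and 392 to 539 in CD34-Flt3- cells. Nkg7, a granule protein of NK and cytotoxic T cells, made up most of it, and without Nkg7 the sums were 217 to 224 in CD34+Flt3hi cells, 246 to 278 in CD34+Flt3- cells and 194 to 239 in CD34-Flt3- cells. For 5 of 6 B lineage markers the sum was 246 to 249 in CD34+Flt3hi cells, 217 to 223 in CD34+Flt3- cells and 299.8 to 320 in CD34-Flt3- cells, without overlap, although no gene of this list passed in any comparison. The sums of 4 of 7 mature erythroid markers (60.3 to 93.3 over all arrays) and 5 muscle markers (148 to 181) held no gene that passed in any comparison. The part of these values in the results on the respiratory genes was not tested.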

How the data were processed

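RNA of 6 sorted LSK samples was measured on Affymetrix arrays, 2 per group. Arrays have no depth, and precision is limited by how few there are. The deposited values are probe set intensities that the authors made with RMA (robust multi-array average, version not stated), per the submitters' processing notes. They run from 6.50 to 24173 and are taken as linear, an inference from this range, and their log2 was computed here. Of 45101 probe sets, 34945 carried 1 symbol and gave 18193 genes; 932 with several symbols were left out. Symbols were updated through gene identifiers, of which 99.1% matched.

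Background was taken from 27 unspiked bacterial control probe sets, at their 90th percentile. A model with a mean per group was fitted to the 6 arrays in R 4.3.3 with limma 3.58.1. Variances were moderated by empirical Bayes with a trend on intensity, leaving 3 residual and 6.86 prior degrees of freedom. Two-sided p-values received a Benjamini-Hochberg adjustment across the 18193 genes. With 2 arrays a side, exact permutation p-values do not go below 0.333, so this test was not used. The procedure was tested on simulated data, but no result of that test is given here or used as support.

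The members, gene lists, tests and alternatives were chosen with earlier results of these data known. Genes named are those that passed, the 2 largest differences each way where fewer than 4 passed, the 2 brightest probe sets of a complex, complex II, the isoform pairs and Cox7a2l. Ndufv1, Ndufv2, Ndufab1, Ndufb3, Uqcrq, Uqcrc1, Uqcrfs1, Ndufc1 and the ATP synthase genes other than Atp5g3 and Atp5b were added after their values were seen, as were the genes that passed in a single alternative.

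Codes in the titles, of unstated meaning, are shared by replicate 2 of all groups and by replicate 1 of both CD34+ groups. They were not taken to pair the samples in the main fit, since their meaning is not stated. The correlation of replicate deviations was 0.07 for CD34+Flt3hi with CD34+Flt3- cells and 0.06 for CD34+Flt3hi with CD34-Flt3- cells. It was 0.31 for CD34+Flt3- with CD34-Flt3- cells, and these values do not settle whether the codes pair samples. Alternatives were the codes as a block, the prior, array weights, renormalization, a filter on dim genes, the choice of probe sets, a threshold of 0.10 and each array left out. Promoters and names come from RefSeq tables for GRCm38.p6. Figures were drawn with matplotlib 3.10.9.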

Additional observations from a re-analysis of the deposited data

How the results depend on the processing

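Of the 13 gene differences named by the rule and followed through the alternatives, 0 reversed. In several alternatives, such as those on the prior, the array weights and the filter on dim genes, the difference itself stays the same and could not reverse. The other genes named were not all followed, and when quantile normalization was repeated 12 of the 90 members changed sign for CD34+Flt3- minus CD34-Flt3-, 22 for CD34+Flt3hi minus CD34+Flt3- and 1 (Ndufs3) for CD34+Flt3hi minus CD34-Flt3-. Fitting the title codes as a fixed replicate block, which fits CD34-Flt3- replicate 1 exactly, 4 members were called higher and 2 lower for CD34+Flt3- minus CD34-Flt3-, 1 higher and 1 lower for CD34+Flt3hi minus CD34+Flt3-, 7 higher and 1 lower for CD34+Flt3hi minus CD34-Flt3- (median 0.22), 7 by the moderated F and 1 for the difference of the steps. Of all genes, 8.68%, 3.68%, 13%, 13.3% and 3.08% were called in these tests. With the code shared by all groups as the only replicate block, the counts were 2 higher and 1 lower for CD34+Flt3- minus CD34-Flt3-, 1 lower for CD34+Flt3hi minus CD34+Flt3-, 6 higher and 1 lower for CD34+Flt3hi minus CD34-Flt3- and 8 by F, against 6.11%, 1.51%, 9.40% and 9.05% of all genes. As a random replicate block, with a correlation of 0.11, they gave 1 higher for CD34+Flt3- minus CD34-Flt3- and 3 by F, against 2.74% and 5.60% of all genes. The codes were not shown to pair samples, so these counts describe the fits only.

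For CD34+Flt3hi minus CD34-Flt3- the 5 calls became 2 without the intensity trend, where 5.91% of all genes were called. They became 2 when a gene's probe sets were averaged, 3 without x or s probe sets (85 members left) and 1 with only the 4 arrays compared. For CD34+Flt3- minus CD34-Flt3- the 0 calls became 3 higher after repeated quantile normalization, against 2.74% of all genes. They became 1 higher with the filter on dim genes, against 3.19% of the genes left. At a threshold of 0.10 they became 1 higher and 1 lower. For CD34+Flt3hi minus CD34+Flt3- the 0 calls became 1 lower with array weights, against 1.61% of all genes, and 1 lower with only the 4 arrays compared. The single call by F became 0 without the trend or with arrays centred on their median, against 4.24% and 4.18% of all genes. It became 3 with array weights and 6 after repeated quantile normalization, against 5.69% and 5.3% of all genes. At a threshold of 0.10 it became 6. Counts of calls without a share of all genes beside them, here and below, describe the fits only. After repeated quantile normalization the median of the members was 0.27 for CD34+Flt3- minus CD34-Flt3-, -0.0690 for CD34+Flt3hi minus CD34+Flt3- and 0.14 for CD34+Flt3hi minus CD34-Flt3-. Averaging a gene's probe sets gave 0.13 for CD34+Flt3- minus CD34-Flt3-, 0.0350 for CD34+Flt3hi minus CD34+Flt3- and 0.0902 for CD34+Flt3hi minus CD34-Flt3-. The median was 0.0897 for CD34+Flt3hi minus CD34+Flt3- with centred arrays and 0.14 for CD34+Flt3- minus CD34-Flt3- over the 81 subunits, an alternative added after seeing the data.

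Leaving out 1 array at a time, CD34+Flt3- minus CD34-Flt3- gave 0 to 2 higher, 0 to 2 lower and a median of 0.0440 to 0.132, and CD34+Flt3hi minus CD34+Flt3- gave 0 to 1 lower and a median of 0.0582 to 0.0770. CD34+Flt3hi minus CD34-Flt3- gave 0 to 7 higher, 0 to 1 lower and a median of 0.12 to 0.18, and F gave 0 to 4. The lone array left in a group is assumed there to vary like the other groups. Over 20 alternatives, Cox6a1 passed in 17, Ndufa4 in 14, Ndufs8 in 14, Cox5a in 13 and Cox7a2 in 9. The 20 alternatives include symbols taken as annotated and a summary of the subunits alone. In both, these genes keep the adjusted p of the main fit. The pass counts thus include repeats of the main fit, which are no separate check. Over all genes, CD34+Flt3- minus CD34-Flt3- had 140 genes higher and 242 lower, and 253 higher and 246 lower after repeated quantile normalization. The cause of these changes was not tested. With 2 arrays per group, differences of the size of most members here are hard to tell from the replicate spread.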
